A study of Homo sapiens with 12 samples.

Results

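The genes described here are 10 members of the WNT pathway: the ligands WNT5A, WNT7A, WNT7B and WNT10A, the receptor FZD10, the secreted inhibitors DKK1 and DKK3, and the feedback genes RNF43, AXIN2 and LEF1. They were taken by name from the count matrices, which held 33514 gene symbols and no other identifier. Single-cell RNA-seq (scRNA-seq, 3′ chemistry) had been performed in SCC1, SCC6 and SCC25, 3 HNSCC (squamous carcinoma of the head and neck) cell lines. They were grown in medium with 10% fetal bovine serum and were given PBS (untreated) or 100 nM of the anti-EGFR antibody cetuximab every day for 5 days. EGFR, the receptor for epidermal growth factor, drives proliferation in these tumours. With 2 replicates per group there were 12 samples in 6 groups. The study asked which changes linked to resistance arise while the cells are still sensitive to cetuximab. It followed their timing by daily bulk RNA-seq. The single-cell data used here are from day 5 only and served to describe heterogeneity. SCC1 is the line UM-SCC-1 and SCC6 the line UM-SCC-6, so that the data describe 3 tumour lines in culture without the stroma of a tumour.

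WNT ligands are secreted lipid-modified glycoproteins that bind Frizzled receptors (FZD) and their LRP co-receptors. In the canonical branch, binding stops the degradation of beta-catenin, which then works with TCF and LEF factors on target genes such as AXIN2, while in the noncanonical branch, for which WNT5A is the best known ligand, the signal acts on cell polarity and movement. Many targets limit the signal in turn: DKK1 blocks the LRP co-receptors, AXIN2 rebuilds the complex that degrades beta-catenin, and RNF43 removes Frizzled receptors from the membrane.

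The matrices held 23914 cells, with 57057402 to 112170073 unique molecular identifiers (UMIs, each a counted transcript) per sample. The median per cell was 24078.5 UMIs in cetuximab-treated SCC6 replicate 1, the lowest value, and 50156 in replicate 2 of the same group. The 6 squamous carcinoma markers were detected in every sample, but the keratins KRT5 and KRT14 were at 0.379 to 4.57 CPM of the sample total in SCC6 and at 370 CPM or more in the other lines. Levels below are UMI counts brought to a common library size (CPM) with TMM factors. Changes are log2 fold changes of cetuximab minus PBS ± SE, from the quasi-likelihood test of edgeR on UMIs summed per sample. The SE was derived from this test, as the absolute log2 fold change divided by the square root of the F statistic. FDR is the p-value adjusted over the 17897 genes tested, with a threshold of 0.05. All 10 members passed the filter on low counts, but AXIN2 and LEF1 are rare transcripts and are given as UMIs.

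Promoter sequence of RefSeq (GRCh38.p14, from 250 bases before to 50 bases after a start site) was matched by symbol for 6 of the 10 members, WNT5A, WNT7A, WNT10A, DKK1, RNF43 and LEF1, in 8 windows. WNT7B, FZD10, DKK3 and AXIN2 were not matched. The windows of DKK1 and WNT5A are shown because these genes changed in opposite directions in SCC6. Capitals mark the letters CTTTGA or CTTTGT, the core read by TCF and LEF factors, on either strand. The DKK1 window lies at chr10:52314031-52314330 on the plus strand. The WNT5A windows, at chr3:55487257-55487556 and chr3:55481349-55481648 on the minus strand, belong to 2 start sites.
DKK1: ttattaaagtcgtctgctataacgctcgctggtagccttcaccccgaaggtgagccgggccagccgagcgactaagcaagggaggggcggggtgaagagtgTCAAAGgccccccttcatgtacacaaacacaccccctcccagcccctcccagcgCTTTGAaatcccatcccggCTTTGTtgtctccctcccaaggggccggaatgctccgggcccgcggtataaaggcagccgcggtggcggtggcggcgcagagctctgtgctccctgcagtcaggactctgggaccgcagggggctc
WNT5A upstream start: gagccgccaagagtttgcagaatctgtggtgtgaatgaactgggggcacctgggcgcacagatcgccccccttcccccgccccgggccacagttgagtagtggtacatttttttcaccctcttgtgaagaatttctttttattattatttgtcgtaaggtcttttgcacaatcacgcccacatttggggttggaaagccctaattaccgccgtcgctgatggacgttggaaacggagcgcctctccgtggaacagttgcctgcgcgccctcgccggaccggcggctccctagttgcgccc
WNT5A downstream start: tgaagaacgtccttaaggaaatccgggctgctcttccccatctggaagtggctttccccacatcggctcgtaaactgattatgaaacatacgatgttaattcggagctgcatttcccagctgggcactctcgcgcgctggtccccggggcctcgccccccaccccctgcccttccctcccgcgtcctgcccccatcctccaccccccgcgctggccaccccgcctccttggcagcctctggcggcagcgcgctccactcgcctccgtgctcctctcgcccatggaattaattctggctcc
The DKK1 window held 3 matches, beginning at −149, −95 and −76 from the start site, while both WNT5A windows held 0. Such a match was present in 26.2% of all 35116 windows of this length, and 3 or more in 0.886%. The cut-off of 3 equals the DKK1 count itself, so this share is a description and not a test. RNF43 had 1 match in each of its windows, and WNT7A, WNT10A and LEF1 had none. The AP-1 letters TGANTCA, which do not overlap the TCF core, were found in 1 member, RNF43, and in 7.71% of all windows. These letters describe the windows and do not show that a factor was bound.

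The untreated lines differed in the levels of the WNT genes. Between untreated SCC6 and SCC1, 9 of 10 members differed (4 higher and 5 lower in SCC6), against 40.2% of all genes tested (21.5% higher and 18.6% lower). Between SCC25 and SCC1 there were 7 (5 higher and 2 lower in SCC25), against 40.8% (23.4% and 17.3%), and between SCC25 and SCC6 5 (4 higher and 1 lower in SCC25), against 40.9% (22.2% and 18.7%). These comparisons share the untreated samples of each line, and the members were chosen with earlier results of these data known.

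**Figure D1:**
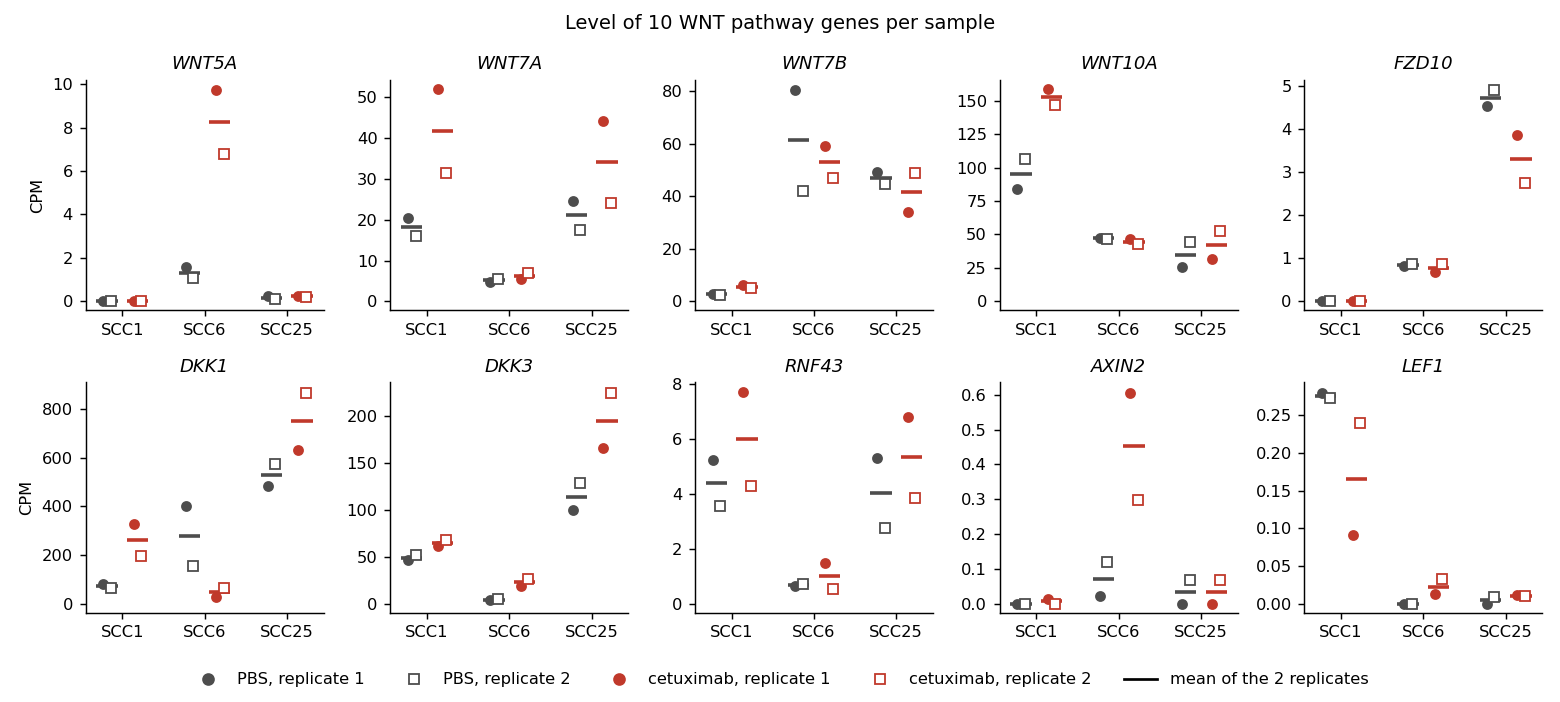
Level of each member in CPM (vertical axis, linear and separate for each gene) in the 12 samples, by line. Grey points are untreated and red points cetuximab-treated samples, and the horizontal lines are means of 2 replicates. WNT5A was between 6.80 and 9.72 CPM in treated SCC6 and at most 1.58 CPM in every other sample, while DKK1 was lower in treated than in untreated SCC6 and higher in treated than in untreated SCC1.

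Among the ligands, WNT5A was found mainly in SCC6. It had 1.58 and 1.07 CPM in the untreated SCC6 replicates, 0.249 and 0.0875 CPM in untreated SCC25, and 0 UMIs in all 4 SCC1 samples. Untreated SCC6 was at least 58.3-fold and untreated SCC25 at least 7.73-fold above untreated SCC1, counting 3 UMIs over the SCC1 group as the limit of detection. SCC6 was also above SCC25 (log2 difference of SCC25 minus SCC6 −3.00 ± 0.50, FDR = 0.00191 in edgeR); this difference was −3.89 without untreated SCC25 replicate 1 and −2.40 without replicate 2, and passed the test in both cases.

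WNT7A and WNT10A, ligands of stratified epithelia, were lowest in SCC6 and highest in SCC1, respectively. WNT7A was 20.5 and 15.9 CPM in untreated SCC1, 24.7 and 17.5 in SCC25 and 4.73 and 5.54 in SCC6. SCC1 and SCC25 overlapped (log2 difference 0.21 ± 0.34, edgeR FDR = 0.648), and both were above SCC6 (edgeR FDR = 0.00234 for SCC1 and 0.00134 for SCC25). WNT10A was 83.8 and 107 CPM in untreated SCC1, against 47.6 and 46.9 in SCC6 and 25.4 and 44.4 in SCC25. SCC1 was above both other lines, with log2 differences of −1.01 ± 0.30 for SCC6 minus SCC1 (edgeR FDR = 0.0218) and −1.45 ± 0.30 for SCC25 minus SCC1 (edgeR FDR = 0.00382). The first lost its call without untreated SCC1 replicate 2 (edgeR FDR = 0.131) and without either untreated SCC6 replicate (edgeR FDR = 0.0868 and 0.0869). SCC25 and SCC6 differed in WNT10A only when the replicate number entered as a block (edgeR FDR = 0.273 without and 0.0172 with it, when 58.1% of all genes were called).

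WNT7B, a related ligand, gave the opposite picture. It stood at 2.95 and 2.29 CPM in untreated SCC1, against 80.4 and 42.1 in SCC6 and 49.1 and 44.8 in SCC25. SCC1 was below SCC6 by a log2 difference of 4.55 ± 0.37 and below SCC25 by 4.17 ± 0.36 (edgeR FDR = 1.04e-05 and 1.86e-05). SCC6 and SCC25 overlapped (edgeR FDR = 0.363).

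FZD10, the Frizzled receptor of the set, was almost absent from SCC1, with 0 or 1 UMI in each of the 4 samples. It had 0.823 and 0.860 CPM in untreated SCC6 and 4.53 and 4.90 CPM in untreated SCC25, and these groups did not overlap (log2 difference of SCC25 minus SCC6 2.48 ± 0.32, edgeR FDR = 0.000222). The ratio to SCC1 was 56.2 for SCC6 (95% counting interval 15.3 to 469) and 347 for SCC25 (95.8 to 2870).

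The inhibitors also separated the lines. DKK1 was 80.7 and 64.6 CPM in untreated SCC1, against 402 and 155 in SCC6 and 485 and 575 in SCC25. It was lower in SCC1 than in SCC6 (log2 difference 1.94 ± 0.48, edgeR FDR = 0.00934) and SCC25 (2.87 ± 0.50, edgeR FDR = 0.00134), but the SCC6 call was lost without untreated SCC1 replicate 2 (edgeR FDR = 0.0700) or untreated SCC6 replicate 1, without which the difference was 1.09 (edgeR FDR = 0.0999). DKK3, a divergent member of the Dickkopf family whose link to LRP is less clear, was 4.02 and 4.76 CPM in untreated SCC6, 46.2 and 52.0 in SCC1 and 100 and 129 in SCC25. All 3 lines were apart in DKK3, with SCC1 above SCC6 by a log2 difference of 3.48 ± 0.26 and SCC25 above SCC1 by 1.22 ± 0.24 (edgeR FDR = 6.50e-06 and 0.00250).

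The feedback genes RNF43, AXIN2 and LEF1 were low in every untreated line, whereas DKK1, also a feedback target, was not. RNF43 was 5.21 and 3.54 CPM in untreated SCC1, 5.29 and 2.77 in SCC25 and 0.644 and 0.718 in SCC6, which lay below both (edgeR FDR = 0.00304 and 0.00397). LEF1 had 20 and 26 UMIs in the untreated SCC1 replicates, 0 in both of SCC6 and 0 and 1 in SCC25. SCC6 was thus at least 20.2-fold below SCC1, and SCC25, with 1 UMI, 57.5-fold below it (95% counting interval 9.82 to 2321). These limits do not order SCC6 and SCC25. AXIN2 had 0 UMIs in untreated SCC1, against 2 and 11 in SCC6 and 0 and 7 in SCC25. Lower limits were 3.29-fold for SCC6 and 1.87-fold for SCC25 over SCC1, and SCC6 passed the test only with the replicate block (edgeR FDR = 0.0961 without and 0.0462 with it, when 57.5% of all genes were called).

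Cetuximab changed 3 members in SCC6, where 3.81% of all genes were called (2.51% higher and 1.3% lower). WNT5A and DKK3 rose and DKK1 fell. In SCC1 0 members were called, against 0.0168% of all genes, and in SCC25 0, against 0%. At an unadjusted p under 0.05 there were 4 in SCC1 and 1 in SCC25, and DESeq2 called 1 in SCC1 (DKK1, against 1.77% of all genes) and 0 in SCC25 (0.639%). With the replicate number as a block, edgeR called 3 in SCC1 (against 4.45% of all genes), the same 3 in SCC6 (20.1%) and 1 in SCC25 (0.978%). The values of treated and untreated samples did not overlap for 6 members in SCC1, against 42.7% of all genes, for 6 in SCC6 (46.9%) and for 4 in SCC25 (29.7%).

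**Figure D2:**
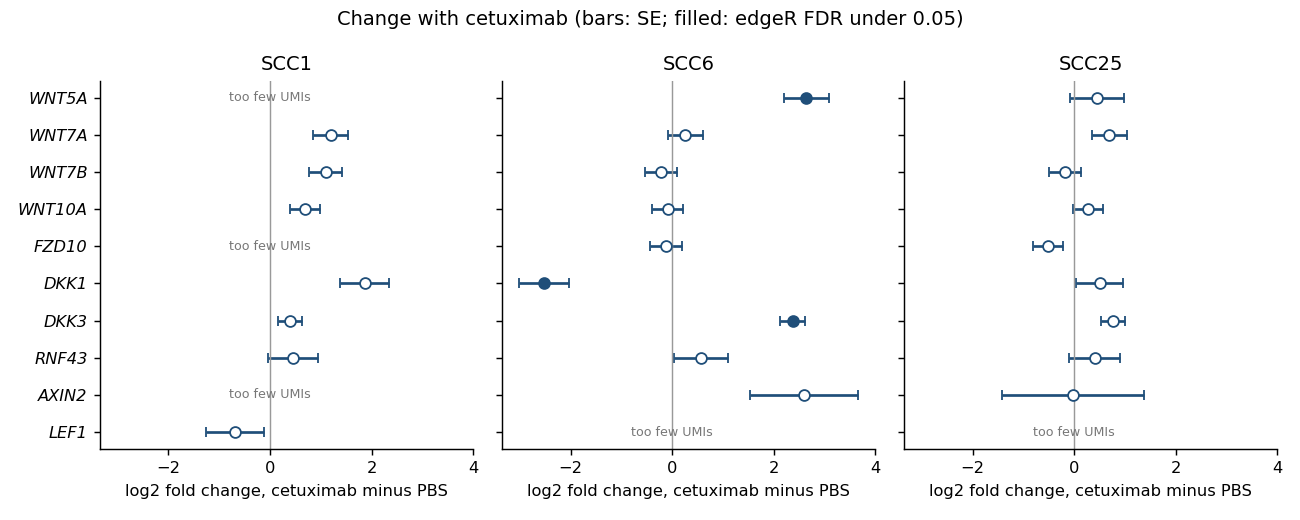
Change of each member with cetuximab in the 3 lines, as log2 fold change (horizontal axis) with bars for the SE; filled points passed an edgeR FDR of 0.05 and values with 3 or fewer UMIs in a group are left out. In SCC6, WNT5A (2.64) and DKK3 (2.38) lie to the right and DKK1 (−2.52) to the left of 0.

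WNT5A rose in SCC6 from 1.58 and 1.07 CPM to 9.72 and 6.80 CPM. Both treated samples were above both untreated ones, by 6.17-fold in replicate 1 and 6.38-fold in replicate 2, and the log2 fold change was 2.64 ± 0.44 (edgeR FDR = 0.0206). The share of cells with a WNT5A UMI, after every cell was thinned to 15000 UMIs, was 1.92% and 1.64% in untreated and 13.3% and 10.3% in treated SCC6 (4.43%, 3.54%, 21.0% and 26.2% without thinning). The mean in cells with a UMI was 1.03 to 1.18 UMIs in all 4 SCC6 samples, so that most positive cells had a single UMI at this depth.

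In SCC25, WNT5A was 0.249 and 0.0875 CPM without and 0.232 and 0.217 CPM with cetuximab, which overlapped. In SCC1 no cell had a UMI in any sample, which allows a share of at most 0.183% to 0.320% of cells per sample at this depth. Genes of blood and liver, which these lines should lack, were found in at most 0.151% of thinned cells, and the SCC25 shares were 0.160% to 0.452%. The exact 95% interval included 0.151% in 2 of the 4 SCC25 samples and lay above it in the other 2.

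DKK3 had 4.02 and 4.76 CPM in untreated and 19.4 and 26.2 CPM in treated SCC6. The groups did not overlap, at 4.83-fold and 5.52-fold per replicate, and the log2 fold change was 2.38 ± 0.25 (edgeR FDR = 0.00373). Its share of positive cells went from 4.90% and 6.45% to 25.0% and 31.7%. In SCC25 the values were 100 and 129 CPM without and 166 and 225 CPM with cetuximab, which did not overlap either (0.77 ± 0.23, edgeR FDR = 0.611, and 0.0354 with the replicate block). SCC1 held 46.2 and 52.0 CPM untreated and 61.4 and 68.2 CPM treated (0.40 ± 0.23, edgeR FDR = 0.721). Paired by replicate number, DKK3 was therefore higher in the treated sample of all 6 pairs. The share of all genes higher in every pair was not computed.

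DKK1 fell in SCC6 and was higher in treated samples of the other lines. It went from 402 and 155 CPM to 30.4 and 66.9 CPM in SCC6, with no overlap (−2.52 ± 0.49, edgeR FDR = 0.0240). The replicates were unequal in size: the treated level was 0.0756 of the untreated one in replicate 1 and 0.431 in replicate 2. The share of cells with a DKK1 UMI was 78.2% and 65.7% in untreated and 25.2% and 42.7% in treated SCC6. In SCC1 the level was 80.7 and 64.6 CPM untreated and 330 and 199 CPM treated, again without overlap (1.86 ± 0.48, edgeR FDR = 0.251, 0.0649 with the replicate block and 0.0152 in DESeq2). The SCC1 shares were 51.9% and 43.0% against 77.6% and 72.3% of cells. SCC25 had 485 and 575 CPM untreated and 633 and 867 CPM treated (0.50 ± 0.47, edgeR FDR = 1), in 88.3% to 93.5% of the cells of every sample.

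The SCC6 calls depended on single samples. WNT5A lost its call without treated replicate 1 (edgeR FDR = 0.140), untreated replicate 1 (0.138) or untreated replicate 2 (0.0690), and DKK1 without treated replicate 1 (0.189) or untreated replicate 1 (0.199), when its log2 fold change was −1.68; without treated replicate 2 it was −3.21 and passed. DKK3 lost it without untreated replicate 1 (edgeR FDR = 0.0623). The direction was the same in each of these fits.

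The difference between lines was tested as an interaction of line and treatment. Of all genes, 0% passed this test in edgeR without the block, and 0 members did (4 at an unadjusted p under 0.05), with FDR = 0.250 for both DKK1 and DKK3. With the replicate block DKK1 (edgeR FDR = 0.0491) and DKK3 (0.0126) passed, against 1.29% of all genes, and DESeq2 called both as well (6.37e-06 and 0.000119), against 1.67%. Across the lines 1 member, DKK3, was called (1.16 ± 0.28, edgeR FDR = 0.0452), against 3.67% of all genes (2.53% higher and 1.13% lower). It lost this call without any of 10 single samples (edgeR FDR 0.0530 to 0.120).

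The epithelial ligands were higher with cetuximab in SCC1 but passed the test only with the replicate block. WNT7A was 20.5 and 15.9 CPM untreated and 52.0 and 31.5 CPM treated (1.20 ± 0.34, edgeR FDR = 0.296 without and 0.0101 with the block). WNT7B was 2.95 and 2.29 against 6.28 and 4.94 CPM (1.10 ± 0.33, edgeR FDR = 0.326 and 0.0288). WNT10A was 83.8 and 107 against 159 and 147 CPM (0.68 ± 0.30, edgeR FDR = 0.550 and 0.0363). In each case both treated samples were above both untreated ones. The share of SCC1 cells with a WNT10A UMI was 65.2% and 71.5% untreated and 87.6% and 81.4% treated.

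None of these ligands passed the test in the other lines, with or without the block, and their interaction with line did not pass either (edgeR FDR = 0.901, 0.586 and 0.927 for WNT7A, WNT7B and WNT10A, and 0.146, 0.0913 and 0.171 with the block). The log2 fold changes in SCC6 were 0.26 ± 0.34 for WNT7A, −0.21 ± 0.31 for WNT7B and −0.089 ± 0.30 for WNT10A. Those in SCC25 were 0.70 ± 0.34, −0.18 ± 0.31 and 0.28 ± 0.30, with treated and untreated samples overlapping for all 3. Paired by replicate number, WNT7A was higher in the treated sample of both SCC25 pairs (1.79-fold and 1.38-fold) and of all 6 pairs of the series. WNT10A was higher in the treated sample of both SCC25 pairs (1.26-fold and 1.19-fold). How many of all genes were higher in every pair was not computed. The sign of WNT10A in SCC6 depended on scaling: on sample totals without TMM it was 39.8 and 41.9 CPM untreated and 47.4 and 42.7 CPM treated, so that both treated samples were higher. Across lines WNT7A had a log2 fold change of 0.72 ± 0.21, and in edgeR passed only with the block (edgeR FDR = 0.0795 without and 0.0248 with it, when 11.6% of all genes were called). DESeq2 called WNT7A across lines without a block (DESeq2 adjusted p = 0.0245).

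The members FZD10, RNF43, AXIN2 and LEF1 had 0 calls with cetuximab in any line. This does not hold for feedback targets in general. Of 15 tested genes listed in that role, which include DKK1, 1 was higher and 2 lower in SCC6, where 3.81% of all genes were called. FZD10 was 4.53 and 4.90 CPM in untreated and 3.86 and 2.76 CPM in treated SCC25, without overlap (−0.51 ± 0.30, edgeR FDR = 0.930), and −0.12 ± 0.32 in SCC6. RNF43 overlapped between treated and untreated samples in every line, with log2 fold changes of 0.40 to 0.57. AXIN2 had 2 and 11 UMIs in untreated and 47 and 27 UMIs in treated SCC6, which did not overlap (2.60 ± 1.07, edgeR FDR = 0.218). LEF1 had 0 UMIs in untreated and 1 and 3 in treated SCC6, and 20 and 26 against 6 and 21 in SCC1 (−0.70 ± 0.57, edgeR FDR = 0.854). Counts this low could not resolve a change of LEF1 in SCC6 or SCC25.

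**Figure D3:**
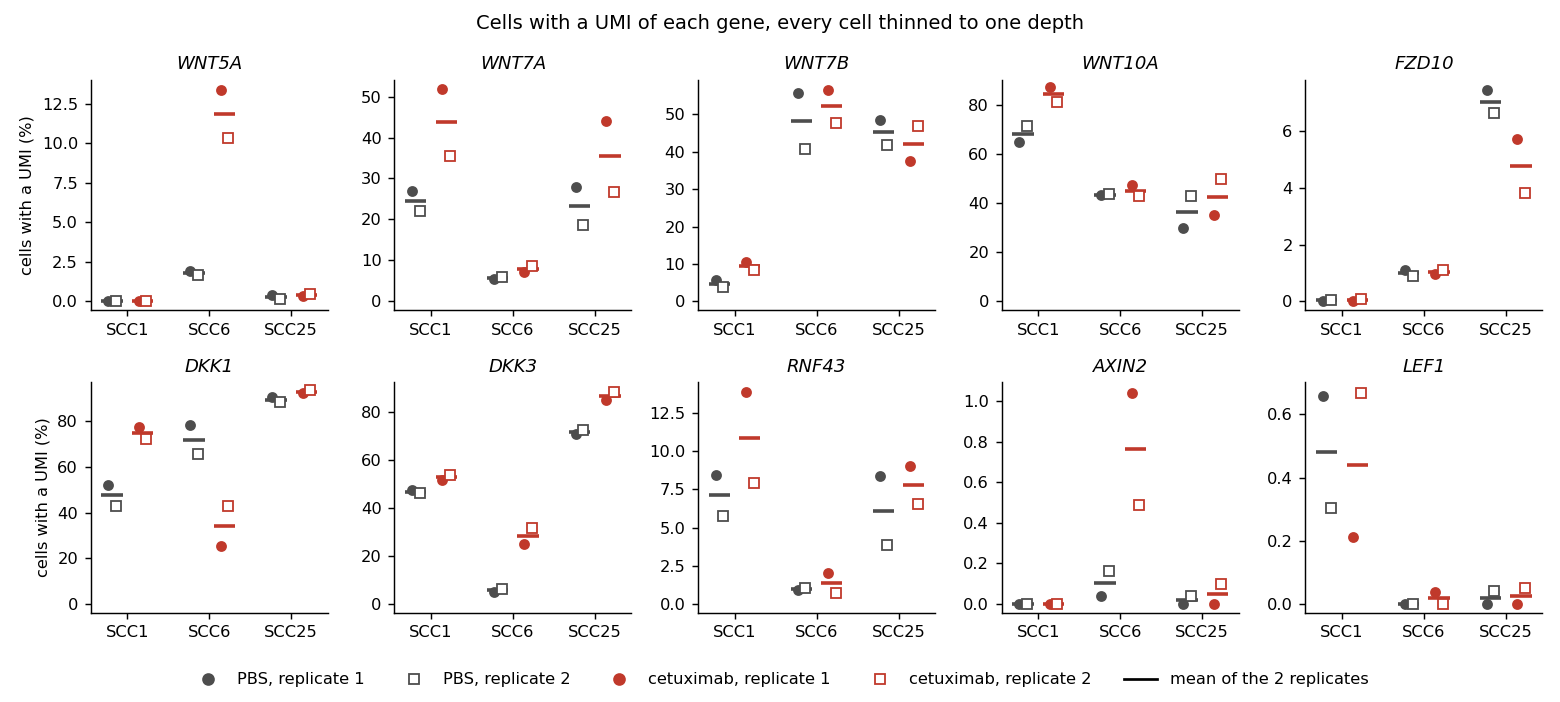
Share of cells with at least 1 UMI of each member (vertical axis, percent, separate for each gene) after thinning every cell to 15000 UMIs, in the 12 samples by line and treatment. The DKK1 share lies between 25.2% and 42.7% in treated SCC6 and between 65.7% and 78.2% in untreated SCC6, and the WNT5A share is 0 in every SCC1 sample.

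Other markers moved in the same samples. VIM, the mesenchymal intermediate filament vimentin, rose in SCC6 from 33.6 and 92.8 CPM to 841 and 805 CPM (3.70 ± 0.60, edgeR FDR = 0.0122). In SCC1 VIM was lower with cetuximab, at 2.03 and 6.59 CPM untreated and 0.628 and 1.11 treated (−2.30 ± 0.59). Its edgeR FDR in SCC1 was 0.251 without and 0.0233 with the replicate block, and the DESeq2 adjusted p 0.00719. SCC25 had 378 and 266 against 524 and 479 CPM of VIM (0.64 ± 0.54), which was not called. The summed level of the 6 fibroblast markers was 0.947 and 2.79 CPM (of the sample total, without TMM) in untreated and 25.2 and 21.1 in treated SCC6, with PDGFRA at 0 in both untreated samples and DCN and COL1A2 at 0 in replicate 1. COL1A1 made up most of the treated sum in SCC6 (23.1 and 18.9 CPM), where COL1A2 was 0.0263 and 0.0556 CPM and DCN 0.303 and 0.0889 CPM. This sum was 8.61 and 7.51 against 17.6 and 18.5 in SCC1. It was 17.6 and 36.1 against 37.4 and 73.0 in SCC25, of which LUM gave 8.50 and 28.1 against 17.8 and 56.1. The squamous markers summed to 1048 and 965 CPM in untreated and 2378 and 3116 in treated SCC6, to 6665 and 6860 against 11856 and 11024 in SCC1, and to 6198 and 10371 against 8035 and 12953 in SCC25. KRT17 alone was 770 and 440 against 2006 and 2449 CPM in SCC6. It was 3718 and 3465 against 7607 and 6907 in SCC1, and 1696 and 2885 against 3623 and 6769 in SCC25. Not all 6 markers rose: the log2 fold change was above 0 for 5 in SCC6, 2 in SCC1 and 2 in SCC25. In SCC25 KRT14 was 2543 and 4289 CPM untreated and 2065 and 3229 treated. On the same scale, the 6 proliferation markers summed to 1078 and 1207 CPM in untreated and 347 and 695 in treated SCC1, to 1129 and 1784 against 1119 and 1280 in SCC6, and to 976 and 927 against 796 and 676 in SCC25. The part of these markers in the changes of the WNT genes was not tested.

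Within each sample, cells were then split by a UMI of VIM, or of MKI67 or TOP2A, which are transcribed in dividing cells, at the common depth. WNT5A was more abundant in the VIM-positive cells of all 4 SCC6 samples, with ratios of 1.34 to 4.31. Both ends of this range rest on few UMIs. The lowest, in untreated replicate 1, came from 12 UMIs in VIM-positive and 42 in VIM-negative cells. The highest, in treated replicate 2, came from 195 and 4 UMIs. DKK3 was also more abundant in VIM-positive cells, with ratios of 1.43 to 1.90 in the 4 SCC6 samples and 1.20 to 1.61 in the 4 SCC25 samples. DKK1 was lower in VIM-positive cells in 4 of 4 SCC6 samples (0.689 to 0.991) and higher in 4 of 4 SCC25 samples (1.17 to 1.50). For these genes the direction within the untreated samples was the same as within the treated ones.

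Most members were lower in the dividing cells of most samples. In cells with MKI67 or TOP2A, WNT10A was lower in 12 of 12 samples (ratio 0.619 to 0.798), WNT7A in 12 of 12 (0.621 to 0.945) and DKK1 in 11 of 12 (0.522 to 1.01). WNT7B was lower in 4 of 4 samples of SCC1 (0.299 to 0.680) and of SCC6 (0.770 to 0.948), and in 2 of 4 of SCC25. RNF43 was lower in 10 of 12 samples and DKK3 in 9 of 12, and in SCC6 both were lower in 4 of 4 (0.530 to 0.844 and 0.574 to 0.783), as was WNT5A (0.568 to 0.965). Cells of a sample are not replicates, and these ratios are given as a description without a test. Neither split was run over all genes, so these counts do not set the members apart from other genes.

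**Figure D4:**
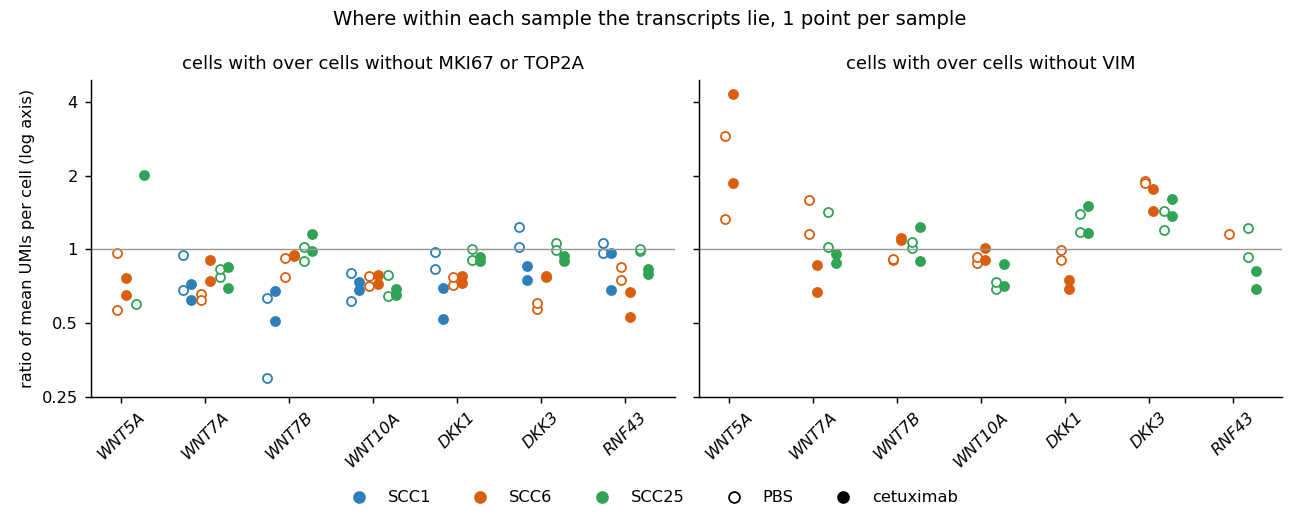
Ratio of the mean UMIs per cell between cells with and without a UMI of MKI67 or TOP2A (left) or VIM (right), 1 point per sample, on a log axis. Colours are lines, open points untreated and filled points cetuximab-treated samples, and samples with too few UMIs of a gene are left out. WNT10A lies between 0.619 and 0.798 in all 12 samples on the left, and DKK3 lies above 1 in all 8 samples on the right.

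Beyond the members, 108 WNT pathway genes were listed by role, of which 104 had a UMI and 95 were tested. In SCC6 8 of these were higher and 3 lower with cetuximab, where 3.81% of all genes were called (26 and 7 with the replicate block, against 20.1%), and their median log2 fold change was 0.34, against 0 over all genes. SCC1 and SCC25 had 0 calls (9 higher and 1 higher with the block, against 4.45% and 0.978% of all genes), with medians of 0.14 and 0.18. Across the lines 7 were higher and 0 lower, against 3.67% of all genes (17 and 2 with the block, against 11.6%). The SCC6 calls include the members WNT5A, DKK3 and DKK1 described above, and the calls across lines include DKK3.

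The WNT ligands held most of the SCC6 calls, with 5 of 14 tested higher and 1 lower, against 2.51% and 1.3% of all genes tested. Besides WNT5A, these were WNT11, WNT6, WNT5B and WNT9A, and WNT16 was the one that fell. WNT11, a further noncanonical ligand, had 0.0358 and 0.0653 CPM untreated and 0.786 and 0.686 CPM treated in SCC6 (3.81 ± 0.64, edgeR FDR = 0.0149). WNT6 went from 6.06 and 8.59 to 54.7 and 40.1 CPM in SCC6 (2.69 ± 0.51, edgeR FDR = 0.0210) and was also called across lines (1.82 ± 0.33, edgeR FDR = 0.0163). The closest relative of WNT5A, WNT5B, rose by a log2 fold change of 2.37 ± 0.31 and WNT9A by 1.70 ± 0.40 (edgeR FDR = 0.00678 and 0.0450); both were named after their values were seen. WNT16 fell from 2.17 and 1.40 to 0.335 and 0.210 CPM (−2.71 ± 0.57, edgeR FDR = 0.0311). With the replicate block, WNT6 and WNT9A also passed in SCC1 (edgeR FDR = 0.295 and 0.256 without and 0.0120 and 0.0298 with it), and WNT5B and WNT16 across lines (0.0562 and 0.0693 without and 0.0493 and 0.0376 with it).

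Among the other roles, TCF7L1, a TCF factor that mostly represses targets, rose in SCC6 from 6.54 and 6.13 to 29.9 and 20.5 CPM (1.99 ± 0.29, edgeR FDR = 0.00851). NKD2, an inhibitor that binds Dishevelled, fell from 1.15 and 0.773 to 0.232 CPM in both treated samples (−2.04 ± 0.34, edgeR FDR = 0.0144). PRICKLE1, a planar cell polarity protein, rose in SCC6 (1.41 ± 0.32, edgeR FDR = 0.0416) and across lines (1.37 ± 0.19, edgeR FDR = 0.00663). Across lines the receptor FZD7 (0.62 ± 0.15), the co-repressor TLE4 (0.96 ± 0.20) and the cadherin CELSR1 (0.48 ± 0.12) were higher as well (edgeR FDR = 0.0479, 0.0253 and 0.0477). LGR5, an R-spondin receptor, was called across lines (edgeR FDR = 0.0171) with at most 27 UMIs per sample, and had 0 UMIs in untreated SCC1 and SCC6, so that its fitted size is not given. The members called in SCC6 are part of these lists, and the receptors (16 tested) and the cytoplasmic machinery (17 tested) had 0 calls in any single line without the block. With it, 8 of the 16 receptors were higher in SCC6 and 2 in SCC1, where 20.1% and 4.45% of all genes were called. Of the 17 genes of the cytoplasmic machinery, 3 were higher and 1 lower in SCC6 with the block, close to the share over all genes. FZD7 and TLE4 then passed in SCC1 and SCC6, PRICKLE1 in SCC1 and LGR5 in SCC6.

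**Figure D5:**
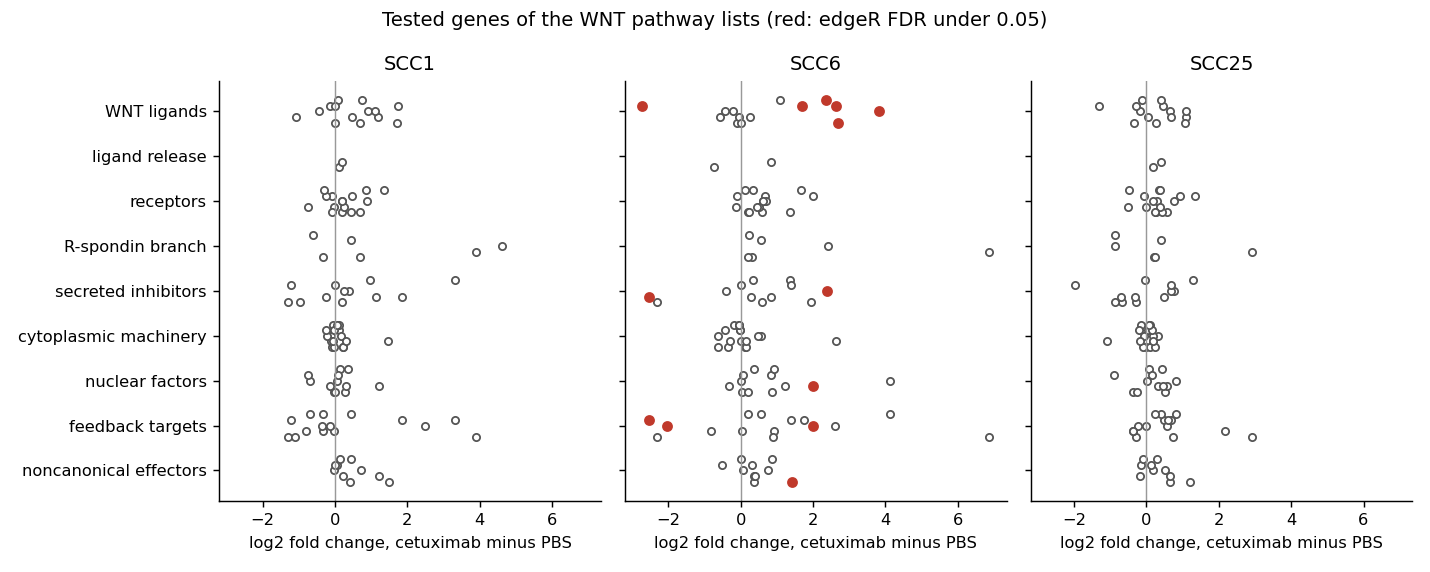
Log2 fold change with cetuximab (horizontal axis) of the tested genes of 9 WNT pathway lists (rows) in the 3 lines, 1 point per gene, some genes being in more than 1 list. Red points passed an edgeR FDR of 0.05 and are seen only in SCC6, 5 of the ligands to the right and 1 to the left of 0; the far points at the right edge are rare transcripts whose fitted fold has no firm size.

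The pattern over the 12 samples was compared with that of 7558 genes of at least 10 CPM on average, by the root mean square difference of centred log2(CPM + 1). The genes closest to WNT7A were B2M, HLA-E and C19orf66, at differences of 0.32, 0.34 and 0.35 against a spread of 1.08 of WNT7A itself. B2M and HLA-E encode parts of MHC class I molecules. WNT10A was closest to IL17RC, YIPF1 and ANKRD12 (0.23 to 0.25), and WNT7B to SUSD3, LINC00662 and AIF1L (0.40 to 0.44). DKK3 was closest to PDPN (0.57), the membrane protein podoplanin, followed by PPP2R2B and PFN2 (0.64 for both). The genes closest to DKK1 were C1orf116, FXYD3 and CLDN1, at 0.69 to 0.73 against a spread of 1.49 of DKK1 itself.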

How the data were processed

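The authors treated the lines in culture, prepared 10x 3′ libraries, and aligned and counted the reads with CellRanger (version not given in the sources used here; build GRCh38 per the submitters' processing notes). The deposited matrices, 1 per line, hold raw UMI counts per gene and cell, whole numbers with no normalization, and the counts of 24 symbols found on more than 1 matrix line were added. All 23914 cells were used, with no doublet caller. Cell barcodes found in a pair of samples numbered 3 to 10 within a group and 1 to 13 between groups.

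UMIs were summed per sample and tested with edgeR 4.0.16 (R 4.3.3; TMM, filterByExpr, 1 mean per group, 6 residual degrees of freedom, two-sided quasi-likelihood tests, Benjamini-Hochberg FDR), with DESeq2 1.42.0 as an alternative. The group means and the 6 degrees of freedom belong to the edgeR tests within lines, between lines and of the interaction, without a block. The test across lines used a separate fit with terms for line and treatment. A replicate block added terms, which left fewer degrees of freedom. Lists were not tested as sets. Samples rather than cells were compared, unlike in the study, because cells are not replicates. The labels and methods do not settle whether replicates were separate cultures, so p-values measure the spread between libraries. Within each line, deviations of equally numbered samples from their group means correlated at r = 0.38 (SCC1), 0.35 (SCC6) and 0.60 (SCC25), all above 0.1. The pairing was read from this correlation and the numbers in the labels, and values with a block for line by replicate are given where they changed the call of a member or of a named list gene.

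For shares, each cell was thinned to 15000 UMIs and 851 shallower cells were left out. Shares carry counting error only: the exact 95% Clopper-Pearson interval of the lowest DKK1 share in SCC6, 25.2%, was 23.5% to 26.9%. Limits at 0 and lower bounds of folds used 3 counts. Depth was at least 57057402 UMIs per sample. The analysis used Python 3.11.15, and the edgeR step was checked on simulated counts.

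The members and the gene lists were chosen with earlier results of these data known. Every member was named in each comparison. From each WNT list, up to 4 genes of largest fold change among those past the threshold were named per comparison, and likeness named 3 genes per member of at least 10 CPM. Near-identical genes and overlapping genes may share reads, and how these were counted was not given.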

Additional observations from a re-analysis of the deposited data

Results flagged for a closer look

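DKK1 moved in opposite directions in different lines: every treated sample lay above every untreated one in SCC1 (log2 fold change 1.86) and SCC25 (0.50) and below in SCC6 (−2.52). The difference between lines was tested as an interaction and had an edgeR FDR of 0.250 without the replicate block, 0.0491 with it and 6.37e-06 in DESeq2.

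WNT10A showed the same arrangement on a smaller scale, with both treated samples above both untreated ones in SCC1 (log2 fold change 0.68) and below them in SCC6 (−0.089), while SCC25 overlapped (0.28). The SCC6 direction turns with scaling: on sample totals without TMM both treated samples were higher (47.4 and 42.7 against 39.8 and 41.9 CPM). The interaction had an edgeR FDR of 0.927, so that this difference did not pass the test.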

How the results depend on the processing

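Alternatives were DESeq2, DESeq2 size factors within edgeR, no filter on low counts, a replicate block by line or shared, sums without the 5% of cells with most UMIs or without cells over 20% mitochondrial UMIs, totals thinned to the smallest sample, and leaving out each sample in turn (a lone sample was then taken to vary like the other groups). With cetuximab, the members called in SCC1 were 0, but 1 without the filter, 1 in DESeq2 and 3 with the replicate block by line. In SCC25 the block gave 1 in place of 0. Across lines the count of 1 became 3 without the filter, 3 in DESeq2, 2 with the block by line and 3 with the shared block, and the interaction count of 0 became 2, 2, 2 and 1 under the same settings in this order. Leaving out single samples gave 0 to 3 members in SCC6 and 0 to 1 across lines. The block changed no other call of a member than those printed beside the results. Directions of small, uncalled changes were not stable when single samples were left out: with cetuximab, the log2 fold change ran from −0.15 to 1.34 for WNT5A in SCC25, −0.61 to 0.32 and −0.46 to 0.074 for WNT7B in SCC6 and SCC25, −0.13 to 0.74 for WNT10A in SCC25, −0.34 to 0.055 for FZD10 in SCC6, −0.37 to 0.58 for DKK1 across lines, −0.037 to 0.81, −0.30 to 1.11 and −0.048 to 0.94 for RNF43 in SCC1, SCC6 and SCC25, −4.71 to 4.68 for AXIN2 in SCC25 and −0.29 to 0.52 for LEF1 across lines. Between untreated lines it ran from −0.054 to 0.44 (WNT7A) and −0.66 to 0.27 (RNF43) for SCC25 minus SCC1, and from −0.78 to 0.15 (WNT7B) and −5.66 to 0.60 (AXIN2) for SCC25 minus SCC6. AXIN2 in SCC25, at −0.017, was 0.022 with the block and 0.19 without the cells with most UMIs. LEF1 across lines, at −0.029, was 0.0034 without the filter, 0.30 in DESeq2 and 0.036 without those cells. The cause of these shifts was not tested. Low counts limit AXIN2, LEF1 and, in SCC1, FZD10 and WNT5A, while for the other members the spread between 2 libraries sets the precision.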
